A study of Drosophila melanogaster with 57 samples.

Results

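The 508 regions described here are the piRNA clusters that a genome-wide scan placed on the euchromatic part of the Drosophila X chromosome. They are the regions of the deposited list that lie on X and start before position 21500000 of the dm6 genome, and they make up 508 of the 573 regions on X and of the 3356 regions in all. Only position was used to choose them, so width, spacing, repeat content, and gene content were free to vary. Small RNAs had been sequenced from 6 groups with 3 libraries each: cultured GSCs (germline stem cells) of a vasa-GFP line that carries hs-bam and is bamΔ86/bamΔ86, the SCs (somatic support cells) grown with them, ovaries in which nos-gal4 drove UASp-tkvM1, bamΔ86 mutant ovaries, ovaries with the alleles bgcn20093 and bgcn20915, and w1118 ovaries. The GSC and SC groups therefore come from 1 cultured line, and the ovary groups hold somatic cells beside germ cells. The study presents the list as newly found clusters, set beside the canonical clusters known before. The list does not mark overlaps with canonical clusters, and some of its regions may overlap them. The shares and gaps below therefore refer to this list alone and not to every piRNA source on the arm. The list is 1 outcome of the scan for the whole study. It does not name the libraries behind a region, and it holds no read count, strand, or level, so the values below describe where the regions lie and carry no replicate error.

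piRNAs are small RNAs that guide PIWI proteins to matching transcripts, mainly of transposable elements (TEs), in the gonads of animals. They are cut from long precursor transcripts of piRNA clusters, of which the well-known ones in flies lie in heterochromatin near centromeres and telomeres and are full of TE remnants. Protein-coding genes can also be a source, and the 3′ UTR of such transcripts is the part best known for it. Along the fly X, the telomeric end is followed by gene-rich euchromatin, and the centromeric end is heterochromatin that holds flamenco, the main piRNA cluster of ovarian somatic cells.

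Tandem arrays with copies 350 to 365 nt apart occurred in 35 of the 508 regions, so their sequences are shown first. In all, 77 such arrays were found before the boundary. The first sequence below is from the longest one, which filled 41965 nt of the widest region, cluster_5212, with copies 357 nt apart, and its capitals mark the 25-mer that was most frequent in the array, with 114 copies. In the other sequences the capitals mark the 25-mer that was shared by the largest number of regions, 42 of 508. The longest array did not hold this 25-mer exactly, and the best match in the stretch shown differed from it at 2 of 25 bases. The last 2 arrays lay outside all regions and are shown for comparison. Sequences are from the dm6 genome, 5′ to 3′ on the strand given.
Array of cluster_5212, chrX:201921-202220, plus strand: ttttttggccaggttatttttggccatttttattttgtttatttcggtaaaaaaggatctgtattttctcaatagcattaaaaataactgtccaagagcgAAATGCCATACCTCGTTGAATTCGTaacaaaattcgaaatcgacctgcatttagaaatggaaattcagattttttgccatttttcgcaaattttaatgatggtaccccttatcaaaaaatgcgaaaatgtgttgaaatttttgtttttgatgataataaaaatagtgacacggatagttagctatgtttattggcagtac
cluster_5707, chrX:8699101-8699250, minus strand: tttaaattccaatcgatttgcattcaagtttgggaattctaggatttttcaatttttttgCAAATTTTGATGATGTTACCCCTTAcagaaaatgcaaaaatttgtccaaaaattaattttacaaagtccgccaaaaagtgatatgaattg
cluster_5976, chrX:12794833-12794982, minus strand: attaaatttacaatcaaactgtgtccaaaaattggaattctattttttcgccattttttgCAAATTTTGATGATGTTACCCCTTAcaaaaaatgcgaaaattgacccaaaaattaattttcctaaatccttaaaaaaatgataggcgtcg
cluster_5525, chrX:5521312-5521461, minus strand: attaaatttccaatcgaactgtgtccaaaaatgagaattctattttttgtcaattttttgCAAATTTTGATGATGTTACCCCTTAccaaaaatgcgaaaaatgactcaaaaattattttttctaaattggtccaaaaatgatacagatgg
cluster_5770, chrX:9623680-9623829, minus strand: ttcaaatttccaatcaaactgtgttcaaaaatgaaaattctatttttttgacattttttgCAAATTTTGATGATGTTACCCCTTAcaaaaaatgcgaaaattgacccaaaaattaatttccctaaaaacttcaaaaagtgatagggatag
Array outside regions in Ten-a, chrX:12189268-12189417, plus strand: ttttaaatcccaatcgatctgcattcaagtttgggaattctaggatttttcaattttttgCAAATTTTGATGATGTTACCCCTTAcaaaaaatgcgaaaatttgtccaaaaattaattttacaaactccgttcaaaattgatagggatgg
Array outside regions in CARPB, chrX:9809871-9810020, minus strand: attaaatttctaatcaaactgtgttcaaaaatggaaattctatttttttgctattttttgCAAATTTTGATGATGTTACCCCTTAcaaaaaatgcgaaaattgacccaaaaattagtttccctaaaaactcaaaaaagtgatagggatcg

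Outside the capitals, the copies from cluster_5976, cluster_5525, and cluster_5770 differed from that of cluster_5707 by 34 to 36 base changes over 150 nt, gaps included. The copies outside all regions differed from it by 14 and 35, so this stretch did not separate arrays inside regions from arrays outside them. The 25-mer had 186 copies before the boundary and none past it. Of these copies, 99 (53.2%) lay in the regions and 87 outside. The 25-mer was chosen for the number of regions that hold it, so this share is no measure of enrichment. Among the 42 regions that held it, 19 had a single copy and cluster_5707 had the most, 9.

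The arrays were either inside a region or outside. Of the 77 arrays, 34 lay wholly inside a region, 1 lay inside but for its first base, and 42 did not touch one. The regions held 72.9% of the 140903 nt in such arrays, and 61.4% when the longest array was left out. Length separated the 2 kinds in part: all 10 arrays of at least 2500 nt lay in regions, compared with 25 of the 67 shorter ones, and the longest array outside was 2059 nt. With any cut above 2059 nt, every longer array lay in a region. These lengths follow the joining distance used to define an array. The scan also kept only regions above a minimum width, and the narrowest region before the boundary was 2002 nt. An array shorter than this minimum could not make up a region by itself. The part of the minimum width in the split by length was not tested. The median array length was 932 nt inside and 772 nt outside. Arrays inside regions included ones in the genes sdt, Pde9, Syt12, and mew, and in lncRNA:roX1, which encodes an RNA of the dosage compensation complex. One of the 10 long arrays, in cluster_6077, fell in the repeated coding sequence of the mucin gene Muc12Ea.

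Coding sequence was repeated in tandem in some regions. Cluster_6063 met 12 neighboring Stellate genes, all of them whole but Ste:CG33236, which runs past the end of the region. These genes repeat every 1269 nt and encode a protein that forms crystals in the testis when piRNAs do not silence it. Cluster_6178 lay in Muc14A, a mucin gene, and 93.9% of its bases were coding. Gene bodies made up 56.4% of cluster_6063 and TE insertions 0.804%, and a stretch of a Stellate gene is shown for this reason. Its capitals mark bases in 25-mers found in every one of the 12 genes (262 of the 300 bases).
Ste:CG33247 coding sequence, chrX:14047098-14047397, minus strand: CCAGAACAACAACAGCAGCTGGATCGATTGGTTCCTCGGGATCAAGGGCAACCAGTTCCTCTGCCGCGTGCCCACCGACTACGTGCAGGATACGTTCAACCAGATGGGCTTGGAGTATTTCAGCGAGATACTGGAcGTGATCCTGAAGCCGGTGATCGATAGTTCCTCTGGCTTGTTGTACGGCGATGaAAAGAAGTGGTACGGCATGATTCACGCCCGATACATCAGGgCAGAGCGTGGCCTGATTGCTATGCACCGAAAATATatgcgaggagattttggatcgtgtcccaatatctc

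The regions were narrow and widely spaced. Widths ran from 2002 to 82053 nt with a median of 4629 nt, and the middle 50% lay between 3111 and 8424 nt. Of the 508 regions, 273 were under 5000 nt, 139 were at least 5000 but under 10000 nt, 75 were at least 10000 but under 20000 nt, and 21 were at least 20000 nt. The 50 widest held 32.5% of all bases in the regions. The 65 regions past the boundary had a median width of 10375 nt and a maximum of 319382 nt. Regions of at least 20000 nt made up 4.13% before the boundary and 26.2% past it. The middle 50% past the boundary lay between 4744 and 23125 nt, so it overlapped with that before it.

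**Figure D1:**
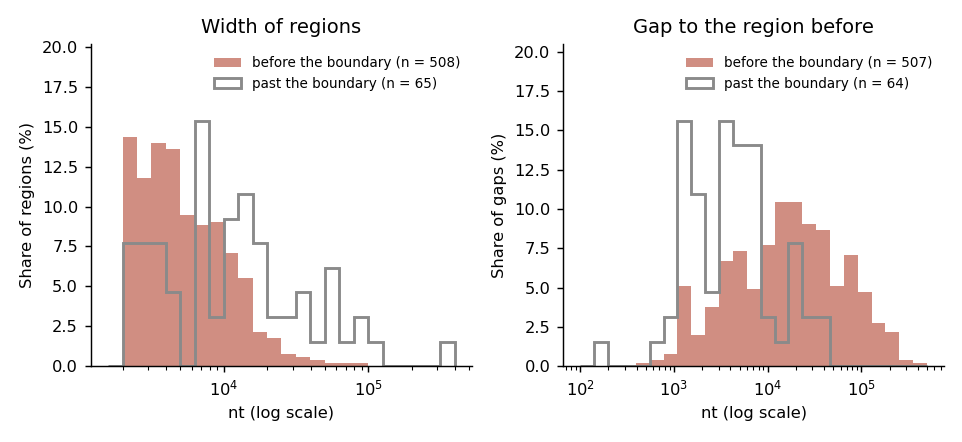
Widths of regions (left) and gaps to the region before (right), in nt on a log scale, as the share of regions or gaps in each bin. Filled bars are the 508 regions of X before the boundary, with 507 gaps, and the outline is the 65 regions past it, with 64 gaps. Medians were 4629 and 10375 nt for width and 17000 and 3846 nt for gap.

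The median gap between neighboring regions was 17000 nt before the boundary and 3846 nt past it. Gaps before the boundary ran from 536 to 391748 nt, with a lower quartile of 5829 nt. In the methods, regions within 1000 nt of each other were merged, and 4 of the 507 gaps were still below that distance. A gap under 5000 nt followed 109 of the regions. Merging over such gaps left 399 regions, with a median width of 5900 nt. The names of the regions are numbers along the genome, and 767 of the 1275 numbers from the first region (cluster_5190) to the last (cluster_6464) were not in the list, or 60.2%, compared with 51.0% of the numbers over the whole list. The list does not say what those numbers stood for.

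The 3 widest gaps were not free of genes. Gene bodies covered 62.9%, 86.8%, and 63.2% of them, against 77.4% of all sequence outside regions. The widest, 391748 nt at chrX:7343491-7735238, contained 27 protein-coding genes, among them ct, which encodes the homeodomain factor Cut, and Hira, a histone H3.3 chaperone. The next, 315272 nt at chrX:12065006-12380277, held 10, including moon, the gene for a germline transcription factor subunit used at piRNA clusters. The third, 265813 nt at chrX:9805586-10071398, held 24, including Cht6, a chitinase, and the yolk protein genes Yp1 and Yp2. The repeat-masked share of these gaps was 20.4%, 21.8%, and 21.6%, against 19.2% over all sequence outside regions.

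Regions covered 3586508 of the 21500000 nt before the boundary, or 16.7%, compared with 77.0% of the 2042271 nt past it. Over the 21 whole windows of 1 Mb before the boundary, the share was 16.4% ± 7.21 (mean ± SD over windows), with a median of 15.5%. The highest was 33.1% in the window that starts at position 19000001, and the lowest was 5.40% in the window before it. The first window, at the telomeric end, had 29.5%, and the window that starts at 16000001 had 25.7%. These were the 3 windows over 25%, whereas 4 windows were under 10%. The number of regions that start in a window ranged from 12 to 34. The first window had 24, which was also the median, so its share came from wider regions.

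**Figure D2:**
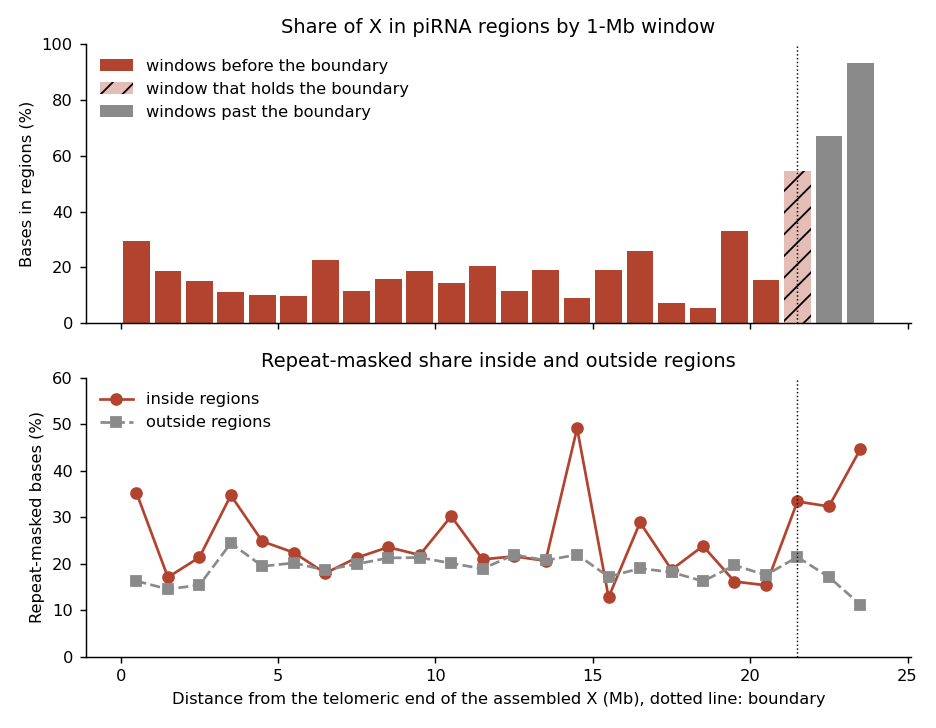
Top, share of bases in regions by 1-Mb window along X, against the distance from the telomeric end in Mb. Bottom, repeat-masked share of bases inside regions (circles) and outside them (squares). The dotted line is the boundary, coverage before it ranged from 5.40% to 33.1% by window, and the masked share inside was higher than outside in 15 of 21 windows.

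Towards the boundary the share did not climb steadily. In steps of 0.5 Mb from position 19000001, the share was 12.2%, 53.9%, 27.0%, 4.01%, and 30.1% before the boundary, and 79.3% in the first step past it. The repeat-masked share of all bases was 17.8% in the last step before the boundary and 38.1% in the first past it, and the share of repeated 25-mers was 8.11% and 73.3%. The last 3 regions before the boundary were cluster_6458 (2526 nt, 7.09% masked), cluster_6459 (9273 nt, 12.4% masked), and cluster_6464 (5083 nt, 10.8% masked, nearly all in annotated TE insertions). The first 3 past it were cluster_6470 (16872 nt, 58.0% masked), cluster_6473 (2467 nt, 94.5% masked), and cluster_6474 (7848 nt, 73.4% masked). The boundary fell in a gap of 56207 nt.

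At the telomeric end the first 3 regions held no annotated gene: cluster_5190 at chrX:5759-11872, cluster_5202 at chrX:51925-54891, and cluster_5204 at chrX:60825-71679. Repeated 25-mers made up 99.6%, 68.1%, and 87.9% of them, although 35.2%, 42.2%, and 43.3% of their bases were repeat-masked. They were followed by cluster_5206, 48413 nt at chrX:79351-127763, which held 9 of the 10 annotated HeT-A insertions before the boundary. HeT-A is a retrotransposon that forms the ends of fly chromosomes.

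Repeat-masked bases made up 22.9% of the regions and 19.2% of the sequence between them. The share inside was higher in 15 of the 21 windows and lower in 6, with a median difference of 2.23 percentage points and a range of -4.42 to 27.2. The largest difference was in the window that starts at 14000001, with 49.1% inside and 21.9% outside. That window holds the Stellate genes, and without cluster_6063 the share inside was 45.9%. In the window that starts at 16000001 the share inside was 28.9% against 19.0% outside, but it was 16.6% without cluster_6178. In the first window, where the share inside was 35.3% against 16.3%, it was 25.4% without cluster_5212. Masking also differed by annotation class before the boundary. It covered 63.2% of bases in TE insertions, 25.9% in 3′ UTRs, 21.1% between genes, 20.5% in introns, and 5.28% in coding sequence. Coding sequence made up 33.6% of the bases in regions and 14.7% of those outside. The part of this make-up in the masked shares was not tested.

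Repeated 25-mers, which need an identical copy elsewhere in the assembled genome, set the regions apart more than masking did. They made up 19.8% of 25-mers in the regions and 4.43% between them. Without the 10 widest regions the share inside was 15.2%, and the masked share was 21.6%. Past the boundary, repeated 25-mers made up 67.3% of the regions and 30.9% of the sequence between them. An identical copy at 100 to 10000 nt on the same chromosome was found for 11.6% of 25-mers in the regions before the boundary and for 0.923% between them.

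Most single regions were nevertheless poor in repeats. The median region was 17.7% masked, with a middle 50% between 10.8% and 27.4%, and the median share of repeated 25-mers was 1.26%. In 237 of the 508 regions fewer than 1% of 25-mers were repeated. At the other end, 53 regions were masked over at least 50% of their bases and 8 were wholly masked. Each of the 8 lay, over at least 99% of its width, in 1 TE insertion, 6 of roo and 2 of 297. They were 2002 to 3947 nt wide, and 5 of them were inside genes (Scgdelta, AstA-R1, pdgy, Dop2R, and shakB). Among the 21 regions of at least 20000 nt, 2 were masked over 50% or more, and the median was 16.2% masked, against 20.2% for the 273 regions under 5000 nt.

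Of the 10 widest regions, 6 were rich in repeated units, cluster_5206 at the telomeric end among them. Cluster_5212 (chrX:172854-254906, 82053 nt, 61.0% masked) held the longest array, between tyn, which encodes a protein of the apical extracellular matrix, and CG3038, and it extended over G9a, a histone methyltransferase gene. Cluster_6395 (chrX:20165734-20231751, 66018 nt) spanned 7 Sdic genes, a sperm dynein gene family that arose from the neighbors sw and AnxB10, with copies 7716 nt apart. Only 8.75% of it was masked, but 85.2% of its 25-mers were repeated. Cluster_6178 (chrX:16009297-16060575, 51279 nt) lay wholly in Muc14A. Cluster_6385 and cluster_6384 (36201 and 34943 nt), which are neighbors, held 11 protein-coding genes (CG45486 to CG45494, CG43784, and CG12655) and 13 pseudogenes, with fragments of invader3, Stalker4, and Rt1c. Reads from such near-identical copies cannot be given to 1 copy, so each copy is uncertain on its own.

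The other wide regions were ordinary genes. Cluster_5607 (41400 nt, 13.4% masked) held RpL17 with 4 snoRNA genes inside its body, and sov, a gene of heterochromatin and ovary development. Cluster_5736 (33673 nt, 19.1% masked) held fend, fh, the frataxin gene, and Bap111, a subunit gene of the Brahma chromatin remodeler. Cluster_6358 (28807 nt) held ND-18 and Pfrx, both genes of energy metabolism. Cluster_5549 (27285 nt) held Act5C, which encodes a cytoplasmic actin. Repeated 25-mers made up between 1.23% and 4.09% of these 4 regions.

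In 24 regions at least 50% of 25-mers had an identical copy within 10000 nt. Besides those above they included cluster_5441 with Glos, Gem4b, and Gem4c (copies 4196 nt apart), cluster_5898 with the kinesin gene nod and 7 pseudogenes (copies 2093 nt apart), and cluster_5493 with hpRNA:CR46342, a hairpin RNA gene (copies 283 nt apart). They also included neighbors that are copies of each other, cluster_5433 with HIP-R and cluster_5434 with HIP, both genes for Hsc70-interacting proteins.

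Annotated TE insertions made up 9.03% of the regions and 2.87% of the sequence between them, and 165 of the 508 regions met at least 1. Of the 567 insertions before the boundary, 292 (51.5%) met a region. Long insertions did not all do so. Of the 97 of at least 4000 nt, 13 lay in regions over 90% or more of their length and 37 met none.

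Families differed widely. In 297, an LTR retrotransposon, 13 of 15 insertions met a region, 98.9% of its bases were in regions, and the 2 left out were 198 and 414 nt long. In HeT-A the share was 99.8% of bases, and the 9 insertions that met a region all lay in cluster_5206. In Rt1c, a non-LTR element, the share was 99.5%, with 4 of 15 insertions in cluster_6395 and others in cluster_6384 and cluster_6385. In copia (4 insertions) and Doc (5 insertions) no base was in a region, and in Tirant the share was 1.38%. On the other 4 major arms the same families had 99.5% for 297, 100% for HeT-A, 88.9% for Rt1c, 12.4% for copia, 16.8% for Doc, and 1.73% for Tirant. HMS-Beagle had 1.22% on X and 37.9% on the other arms, although X had only 4 insertions. HeT-A had only 2 insertions on the other arms. INE-1, an old element with 253 mostly short insertions on X, had 49.2% on X and 75.3% on the other arms. Of its 61899 bases on X, 6127 were in 1 long entry that lay in regions over 9.81% of its length. The X values are for the part before the boundary. The other arms were not limited to their euchromatin, so their values may include insertions in heterochromatin. In the methods, reads were mapped to TE consensus sequences first, only the remaining reads were placed on the genome, and neighboring regions were then merged. The part of these steps in the family differences was not tested.

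**Figure D3:**
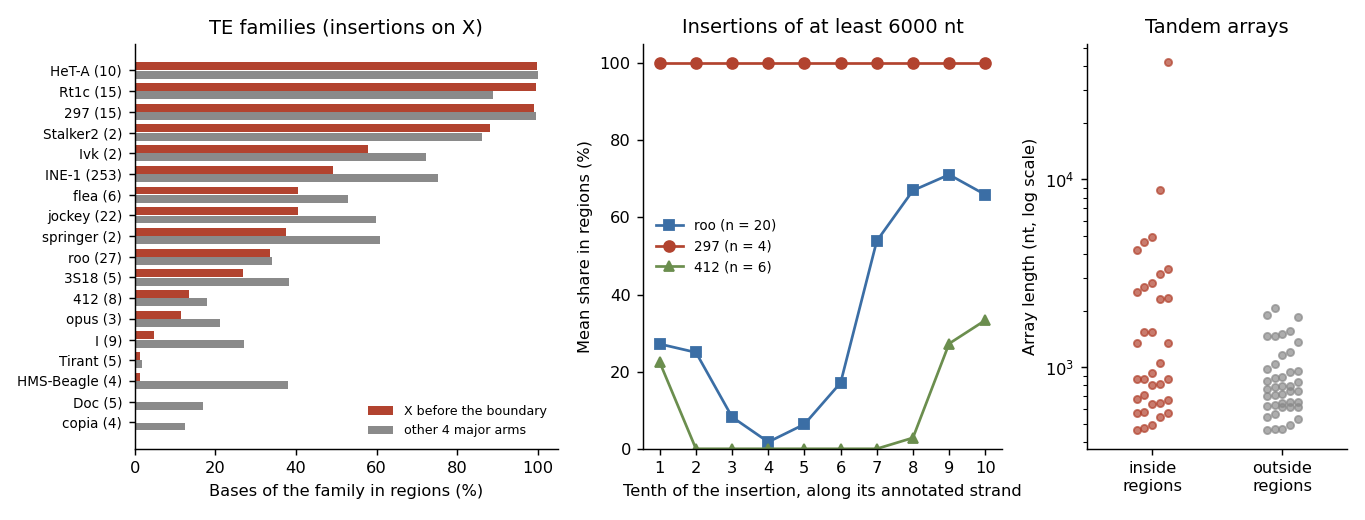
Left, share of bases in regions by TE family, with the number of insertions on X in parentheses. Upper bars are X before the boundary, and lower bars are the other 4 major arms, which were not limited to euchromatin. Middle, mean share in regions along insertions of at least 6000 nt. Right, length in nt (log scale) of tandem arrays inside and outside regions, where all 10 arrays of at least 2500 nt are inside.

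Within the LTR element roo the covered part was uneven. Over the 20 insertions of at least 6000 nt, the mean share in regions was 27.2% in the first of 10 equal parts of the element, 1.76% in the fourth, and 65.9% to 71.1% in the last 3. For the 4 long 297 insertions it was 100% in every part. For the 6 long insertions of 412 it was 22.4% in the first part, 0% from the second to the seventh, and 33.3% in the last.

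Gene bodies covered 83.7% of the bases in regions and 77.4% of those between them, with TE insertions left out of the gene set. A gene was met by 477 of the 508 regions and a protein-coding gene by 466, and 228 regions lay wholly in gene bodies. Within genes the parts were covered unequally. With each base counted in 1 class, 40.0% of 3′ UTR bases were in regions, 31.4% of coding bases, 16.3% of 5′ UTR bases, 27.2% of other exon bases, 8.29% of intron bases, and 10.3% of intergenic bases, against 16.7% of all bases. Coding sequence made up 33.6% of the bases in regions and 14.7% of those outside, and 3′ UTRs 16.3% and 4.89%. Introns made up 23.1% and 51.2%. The list has no strand, so a gene and an antisense or overlapping partner cannot be told apart.

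Coverage was higher at the 3′ end of genes than at the 5′ end. Over the 1088 protein-coding genes of 2000 to 20000 nt, the mean share in regions was 21.6% in the first of 10 equal parts of the gene body, 29.7% in the fifth, and 40.3% in the last, with 22.2% in the 1 kb upstream and 33.7% in the 1 kb downstream. In the 68 genes of at least 50000 nt it was 11.7% in the first part, 6.86% in the fifth, 24.1% in the last, and 29.2% in the 1 kb downstream. Of the 2095 protein-coding genes with both a coding part and a 3′ UTR, 854 met a region. In 710 of them both parts were met, in 43 the 3′ UTR and not the coding part, in 42 the coding part and not the 3′ UTR, and in 59 neither.

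**Figure D4:**
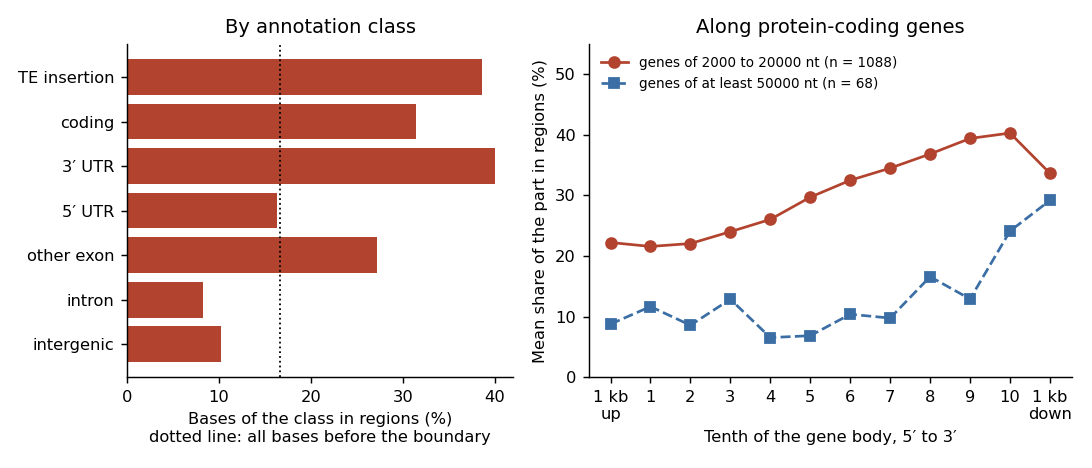
Left, share of bases of each annotation class in regions before the boundary, where the dotted line is 16.7%, the share of all bases. Right, mean share in regions along protein-coding genes from 5′ to 3′ in 10 equal parts, with 1 kb on either side, which rises from 21.6% to 40.3% in the 1088 genes of 2000 to 20000 nt.

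Of the 2700 genes that start before the boundary, 1080 (40.0%) shared at least 1 base with a region, and 756 (28.0%) had at least 50% of the body inside. All 31 snoRNA genes were inside regions, in 11 regions, and 29 of them lie in another gene on the same strand, 14 in RpS5a and 4 in RpL17. Reads that match snoRNAs were set aside in the study before piRNAs were counted. Pseudogenes met a region in 41 of 59 cases (69.5%), tRNA genes in 12 of 24, protein-coding genes in 861 of 2128 (40.5%), and genes of other noncoding RNAs in 133 of 456 (29.2%). Of the pseudogenes met, 20 lay in cluster_6384, cluster_6385, and cluster_6395, which are rich in repeated units, and more in cluster_5898. These pseudogenes are therefore not separate cases. Among protein-coding genes, 26.9% of those under 1000 nt were met, compared with 82.4% of those of at least 50000 nt. The mean share of the body in regions did not follow length in the same way. It was 25.7% under 1000 nt, 23.4% from 1000 to under 2000 nt, 32.8% from 5000 to under 10000 nt, less than 1 percentage point above genes from 2000 to under 5000 nt, 22.9% from 10000 to under 20000 nt, and about 12% in longer genes.

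Cytosolic ribosomal protein genes stood at the high end of the lists. Of the 15 before the boundary 14 (93.3%) met a region, against 40.0% of all genes, and all 14 had at least 50% of the body inside, although their median length of 1617 nt was below the 1955 nt of all genes. RpL36, RpL35, RpS6, RpS14a, and RpS5a were wholly inside, and RpL37-1 met no region. The 12 Stellate genes of the list all met 1 region and are near-identical copies, and the related Ste12DOR lay in cluster_6057.

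Genes of the germline and oogenesis were met in 14 of 26 cases (53.8%, against 40.0% of all genes), and 6 (23.1%, against 28.0%) had at least 50% of the body inside. Their median length was 4734 nt, and 41.4% of all protein-coding genes from 2000 to under 5000 nt were met. Those with the largest shares were fs(1)Yb, a piRNA biogenesis factor of the ovarian soma, and mei-38, a spindle gene, both at 100%, then Klp3A, a kinesin gene, at 95.1% and snf, a splicing factor gene, at 94.6%. The oogenesis gene otu met none, and neither did moon. Genes for eggshell and yolk proteins were met in 2 of 12 cases (16.7%, against 40.0% of all genes). The median length of this list was 1981 nt, and 27.8% of all protein-coding genes from 1000 to under 2000 nt were met. Vml and dec were wholly inside, while the yolk protein genes Yp1, Yp2, and Yp3 and the chorion gene Cp36 met none. In dosage compensation, 32.8% of lncRNA:roX1 was in cluster_5438, and lncRNA:roX2 and mof met no region.

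Chemoreceptor genes, which act in sensory neurons, were met in 5 of 25 cases (20.0%, against 40.0% of all genes), and their median length was 1872 nt. Of all protein-coding genes from 1000 to under 2000 nt, 27.8% were met. All 5 (Ir7b, Ir7f, Ir7g, Ir8a, and Or19b) had over 99% of the body inside. Or19b and Or19a are 1370 nt each, and Or19a met none. Neuronal genes were met in 17 of 25 cases (68.0%, against 40.0% of all genes), but only 1, tay, had at least 50% of the body inside (57.1%). Their median length was 44618 nt, and 52.8% of all protein-coding genes from 20000 to under 50000 nt were met. The next largest shares of the body were 36.3% in futsch, a microtubule-associated protein gene, and 33.3% in elav, an RNA-binding protein gene. The clock gene per and the ion channel gene para met none. Developmental regulators were met in 11 of 27 cases (40.7%, against 40.0% of all genes), and 3 (11.1%, against 28.0%) had at least 50% of the body inside. Their median length was 9595 nt, and 54.4% of all protein-coding genes from 5000 to under 10000 nt were met. The segmentation gene gt was wholly inside and dsh, of the Wnt pathway, at 99.7%, while ct, run, and ac met none. The gene ari-1, a ubiquitin ligase gene, had 51.9% of its body and 94.7% of its 3′ UTR in cluster_6285.

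**Figure D5:**
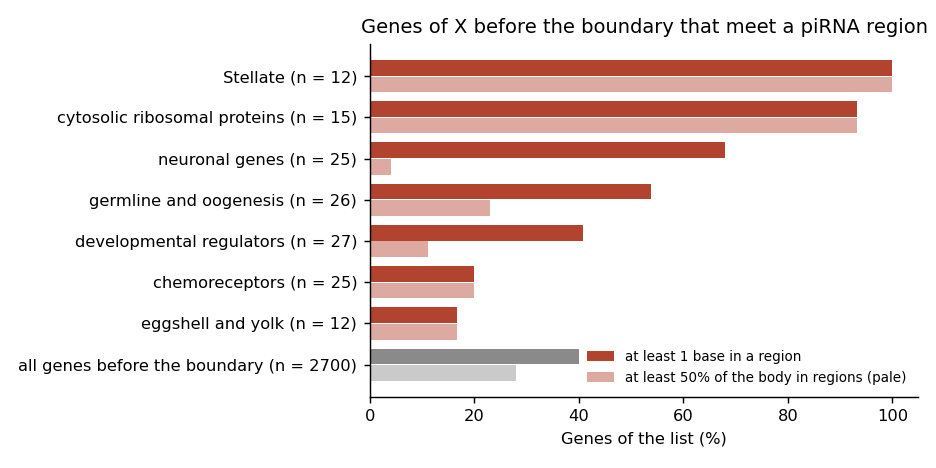
Share of genes of each list that met a region by at least 1 base (upper bars) and by at least 50% of the body (lower, pale bars), with the number of genes in parentheses and all 2700 genes before the boundary at the bottom. Ribosomal protein genes reached 93.3% and eggshell and yolk genes 16.7%, against 40.0% of all genes. The lists differ in gene length, which is not matched here.

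Several regions in a row fell in 1 gene in the longest genes. CG3777 and mamo met 6 regions each. In mamo, a zinc finger gene of oogenesis, the regions covered 34.6% of the body and 70.6% of the 3′ UTR. The genes kirre, lncRNA:CR44999, lncRNA:CR44357, and CG1677 met 5 each. In kirre, a cell adhesion gene of 394149 nt, they covered 3.98% of the body and no base of the 3′ UTR. lncRNA:CR44357 and CG1677 overlap on the same strand and met the same 5 regions.

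Only 31 of the 508 regions (6.10%) met no gene, compared with 15 of the 65 past the boundary (23.1%). These 31 had a median width of 3491 nt and a median masked share of 42.2%, against 16.7% for the 477 regions with a gene, and 22 of them held a TE insertion. The 5 widest were of different kinds. Cluster_6442 (12405 nt) held fragments of 8 TE families, and cluster_5876 (6393 nt) lay wholly in a Stalker2 insertion. Cluster_5653 (9537 nt, 89.4% of 25-mers repeated) and cluster_5707 (6772 nt) held tandem arrays and no annotated TE, and cluster_5204 (10855 nt) was one of the regions at the telomeric end.

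The other major arms were each taken up to the same distance of 2042271 nt from the centromeric end. This distance comes from the boundary on X and was not fitted to the extent of heterochromatin on each arm. The arms may therefore differ in how much heterochromatin they still hold. With this cut, X had the smallest share in regions. It was 16.7% on X, against 18.1% on 2L, 34.5% on 2R, 23.7% on 3L, and 21.8% on 3R. The number of regions per Mb was 23.6 on X, within the 20.9 to 26.8 of the others. The median width of 4629 nt on X was below the 5881 to 7344 nt of the others. The share of genes met, 40.0% on X, lay within the 34.7% to 51.5% of the other arms, and so did the share of 3′ UTR bases in regions with bases of overlapping coding parts kept, 39.7% on X and 39.2% to 48.3% elsewhere. The masked share inside and outside regions was 22.9% and 19.2% on X, 15.2% and 16.7% on 2L, 23.4% and 15.8% on 2R, 27.8% and 17.5% on 3L, and 22.8% and 15.9% on 3R. X thus had the highest masked share outside regions of the 5 arms. With 1 list and 5 arms there is no replicate error for these differences, and they were not tested.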

How the data were processed

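The authors trimmed small RNA reads, mapped them with Bowtie2 to TE sequences and the remainder with Bowtie to dm6, moved a window along the genome to find where reads of piRNA size were dense, joined close regions, required 3 or more unique piRNA reads per kb, then joined regions within 1000 nt, and kept those over 2000 nt. Reads with several genomic matches were kept for the scan. The deposited list holds chromosome, start, end, and name, and a score column whose deposited score is the same for all regions and was not used. Depth per sample is not in the list, and levels were not analysed here.

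Starts and ends were used as deposited. The dm6 sequence with repeats in lower case (RefSeq) and genes and TE insertions of Ensembl release 115 were read on the same coordinates. An overlap was 1 shared base, and genes were those that start before the boundary. Symbols of the lists were matched to the annotation, with synonyms from RefSeq. Of the symbols, clos, Caki, and os were not matched to a gene there. A repeated 25-mer has a second copy, on either strand, in the assembled chromosomes. Arrays were runs of at least 100 25-mers with a copy 350 to 365 nt away and none within 149 nt, joined within 400 nt. Regions named were the 10 widest, 3 at the tip, 3 on either side of the boundary, 5 most masked, 5 widest without a gene, and those with arrays or copies. Genes named were up to 6 per list, those wholly in the 10 widest regions, and those met by most regions, and further ones were named after their values were seen. Profiles along TEs cover families with at least 4 insertions of 6000 nt or more, a limit set after seeing the data. The members and lists were chosen with earlier results of these data known. No test was run, since 1 list has no replicates. The measures were tested on a simulated chromosome. Python 3.11.15, NumPy 2.4.6, and matplotlib 3.10.9 were used.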

Additional observations from a re-analysis of the deposited data

How the results depend on the processing

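Of 68 values recomputed under an alternative, 53 stayed within the limits set for them (a factor of 1.5 for counts and medians, 1 SD over 1-Mb windows for shares of bases, the Wilson 95% interval for the share of genes) and 15 moved. Most of these came with a higher minimum width. At 5000 nt or more there were 235 regions, with a median width of 8795 nt, a median gap of 37669 nt, 8 regions without a gene, and 27.9% of genes met. At 10000 nt or more there were 96 regions that covered 7.89% of the arm, with a median width of 13689 nt, a median gap of 88823 nt, 2 regions without a gene, and 16.3% of genes met. The count of regions without a gene was 90 when only exons counted and 9 when TE insertions counted as genes. The share of genes met was 28.0% when at least 50% of the body had to be inside and 34.4% for genes of at most 5000 nt. Moving the boundary to 20000000, 21000000, or 22000000, merging neighbors within 5000 nt, and leaving out the first 2 Mb moved none of the 8 measures past its limit. Leaving out the 10 widest regions and letting copies in an array lie up to 370 nt apart, which gave 78 arrays against 77, were chosen after seeing the data. No paired analysis was possible because the list has no samples. The list gives no depth, so a short region or a gap may reflect few reads, which was not tested.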
